A study of Mus musculus with 4 samples.

Results

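The 34 genes described here are transporters of the proximal tubule and the receptor complex that this segment uses for endocytosis. They were chosen by symbol from a list of known proximal tubule genes, and all 34 were found among the 27998 genes of each of the 4 count matrices. The question addressed was in which order their transcripts fell and came back in proximal tubule cells after ischemia-reperfusion injury (IRI), and how much of each was also read in other cell types. Single-cell RNA was measured in kidney cells of BAC-CluGFP mice, which carry a bacterial artificial chromosome that drives green fluorescent protein (GFP) from the clusterin gene (Clu), and only GFP-positive cells collected by flow sorting entered the libraries. There was 1 library for each of 4 groups: untreated kidneys, and kidneys taken 2 days (labelled 48 h), 7 days or 30 days after an ischemia of 35 min with reperfusion. The reporter is shared by all 4 groups, so each value describes cells that passed a gate on Clu and not the whole tubule. Strain, age, sex and the number of animals per library are not given in the sources used, the untreated kidneys had no sham operation named in the labels, and the GFP transcript was not analysed here. With 1 library per group the spread between replicates is unknown, and no test was run. Intervals in parentheses are exact 95% intervals that cover counting error only, and a difference between libraries cannot be told apart from one between animals, digestions, sorts or captures.

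The proximal tubule reclaims most of the glomerular filtrate. Sodium-coupled carriers in its brush border take up phosphate, glucose, amino acids, sulfate and carboxylates, partner carriers in the basolateral membrane pass these on to the blood, and organic anion and cation carriers secrete drugs and waste. Filtered protein is taken up by megalin (Lrp2) and a complex of cubilin (Cubn) and amnionless (Amn), with Dab2 as an adaptor to the clathrin coat. The early convoluted and late straight stretches of the tubule use different members of these families, and the late stretch is known to be the more sensitive to ischemia.

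Of 27230 barcodes, 23140 were kept, 6545 untreated and 8310, 1920 and 6365 at days 2, 7 and 30. Cells were clustered without the 34 genes, and 5 of 38 clusters made up the proximal tubule-like class: an early-like, a late-like and an injured-like cluster and 2 others. The 4 clusters other than the injured-like one led in 36 to 40 of 44 proximal tubule marker genes, none of which is among the 34, although 1 of the 4 had no marker of its own class among its top 10 genes. The injured-like cluster led in 10 of 14 markers of injured proximal tubule, such as Havcr1 and Vcam1. Its untreated cells held 0 CPM of Havcr1, against 400, 939 and 92.1 CPM at days 2, 7 and 30. They held 338 CPM of Vcam1, against 491, 1364 and 1435 CPM later. The class held 2890 untreated cells and 116, 714 and 827 cells at days 2, 7 and 30, which is 44.2, 1.40, 37.2 and 13.0% of the kept cells. Injured-like cells were 0.969% of the class untreated and 32.8, 93.8 and 75.8% at days 2, 7 and 30. Of the 2 clusters without such a name, the larger was 55.2% of the class untreated and 9.48, 0.420 and 2.90% at days 2, 7 and 30. The smaller was 21.9% untreated and 3.45, 0.280 and 4.23% later. Each level over the whole class thus also follows this make-up. The gene behind the sort, Clu, stood in the class at 23.2 CPM untreated and 309, 512 and 518 CPM at days 2, 7 and 30. The share of mitochondrial transcripts among the UMIs (unique molecular identifiers, each 1 captured transcript) of the class was 22.3% untreated and 13.2, 5.33 and 7.26% later. Median depth per cell was 4018, 11958, 25158 and 11336 UMIs, and the lowest total in a whole library was 2335, 3881, 18362 and 5976 UMIs, so shallow cells are missing at day 7. Between 4 and 20 barcodes were shared by any pair of libraries.

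Levels are UMIs of a gene per 1000000 UMIs of the class (CPM). A gene counted as measured in a comparison with at least 20 CPM in either library and 20 UMIs in both together, and as lower or higher where the ratio of its CPM was at least 2-fold and the counting interval of the ratio excluded no difference. Together the 34 genes made up 11093 CPM of the untreated class, 8950.4 at day 2, 3415 at day 7 and 4090.4 at day 30. At day 2, 9 of the 34 were lower than in the untreated class, 4 were higher, 19 were within 2-fold and 2 were not measured. Over all 6210 genes measured there, 4.43% were lower and 19.3% higher. At day 7, 23 were lower and 1 was higher, against 9.46% and 34.9% of 6701 genes, and at day 30, 24 were lower and 0 higher, against 7.64% and 33% of 6740 genes. The median log2 ratio of all 34 members, with the 2 not measured included, was -0.59, -1.88 and -1.41 at days 2, 7 and 30. That of all measured genes was 0.44, 0.69 and 0.65. When each comparison was scaled to its own median gene, the day 2 split became 16 lower and 2 higher, and with mitochondrially encoded genes left out of the total it became 14 lower. From day 2 to day 7, 23 of the 30 members measured there fell and 1 rose, with 7.99% and 9.57% of 6887 genes doing so. From day 7 to day 30, 1 of 27 fell and 8 rose, against 0.918% and 2.95% of 6752 genes. The heat map of log2 ratios sets the class beside its cells outside the injured-like cluster.

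**Figure D1:**
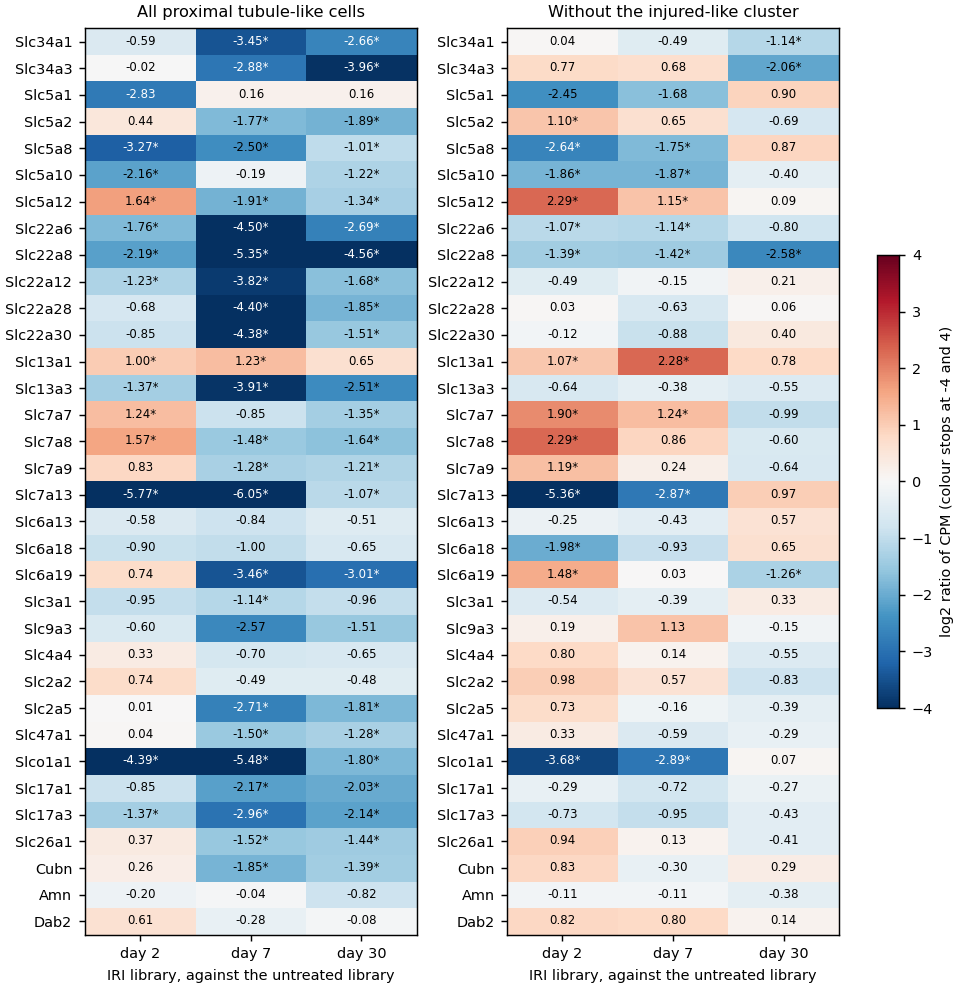
Log2 ratio of CPM against the untreated library for each of the 34 genes (rows) at days 2, 7 and 30 (columns), in the whole proximal tubule-like class and in its cells outside the injured-like cluster; a star marks a difference past the 2-fold rule. Over the whole class, 23 of 34 genes are lower at day 7 and 24 at day 30, and outside the injured-like cluster 6 and 4 are.

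In the order of loss, 9 genes were first lower at day 2: the organic anion carriers Slc22a6, Slc22a8, Slc22a12, Slco1a1 and Slc17a3, the carboxylate carriers Slc5a8 and Slc13a3, the mannose and fructose carrier Slc5a10 and the acidic amino acid carrier Slc7a13. None of the 12 other settings tried kept to a single cluster. Of these 9 genes, 6 stayed lower at day 2 under each of the 12, Slc13a3 and Slc17a3 in 10 and Slc22a12 in 9. All 3 lost the call when the leukocyte and endothelial level was subtracted (log2 ratios of -0.88, -0.86 and -0.83) and outside the injured-like cluster (-0.64, -0.73 and -0.49). Median scaling added 7 genes at day 2, Slc34a1, Slc22a28, Slc22a30, Slc6a13, Slc6a18, Slc3a1 and Slc17a1, so the genes first lower at day 2 depend on the scaling. Another 15 were first lower at day 7 and 1, Slc7a7, at day 30. Of the remaining 9, 6 stayed within 2-fold at all 3 times (Slc6a13, Slc6a18, Slc4a4, Slc2a2, Amn and Dab2), Slc13a1 was higher, and Slc5a1 and Slc9a3 were not measured. Each of the 6 was called in at least 1 other setting: Slc6a18 was lower at day 2 in 7 of 12, and Slc6a13, Slc4a4 and Slc2a2 were lower at days 7 and 30 under median scaling. The lowest of the 4 libraries was day 7 for 25 genes, day 30 for 5, day 2 for 3 and the untreated one for 1. Of the 9 genes lost first, 8 belonged to the late-like cluster in untreated kidneys by the comparison given next. The day 2 class was 51.7% early-like and 2.59% late-like, against 11.7% and 10.2% untreated. In the early-like cluster, Slc22a8, Slc7a13 and Slco1a1 were lower at day 2, while Slc22a6, Slc22a12, Slc13a3 and Slc17a3 were within 2-fold. Slc22a6 stood there at 195 CPM against 280 untreated, and Slc5a8 and Slc5a10 were under the 20 CPM minimum. The late-like cluster held 3 cells at day 2, too few to compare. How far the make-up of the class sets the order was not tested over the class. More values within the early-like cluster are given further on.

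In the untreated library the early-like cluster (337 cells) and the late-like cluster (295 cells) split the 34 genes into 10 at least 2-fold higher in the early-like one, 12 at least 2-fold higher in the late-like one and 12 on neither side. The same split was not counted over all genes, so whether the 34 differ from other genes here is not known. The low-affinity glucose carrier Slc5a2 was 45.9-fold (38.1 to 55.7) higher in the early-like cluster, the lactate carrier Slc5a12 81.3-fold (56.4 to 122) and the phosphate carrier Slc34a3 90.7-fold (47.4 to 199). The other early-sided genes were the amino acid carriers Slc6a19, Slc7a7, Slc7a8 and Slc7a9, the bicarbonate carrier Slc4a4, the glucose exporter Slc2a2 and Slc22a8. In the late-like cluster Slc7a13 was 29.7-fold (25.3 to 35.1) higher, the high-affinity lactate carrier Slc5a8 18.5-fold (13.9 to 25.2), Slco1a1 17.4-fold (15.2 to 20.04) and the high-affinity glucose carrier Slc5a1 10.3-fold (5.59 to 21.0). Also late-sided were Slc5a10, Slc6a18, Slc22a6, Slc22a12, Slc22a30, Slc13a3, Slc6a13 and Slc17a3. The main phosphate carrier Slc34a1, the sulfate carriers Slc13a1 and Slc26a1, Slc22a28, Slc3a1, Slc9a3, Slc2a5, Slc47a1, Slc17a1 and the endocytic genes Cubn, Amn and Dab2 differed less than 2-fold. The 2 clusters were picked by early and late marker lists that hold none of the 34 genes, by a rule set after the clusters had been seen. Slc5a2, Slc5a12 and Slc6a19 were among the top 10 genes of the early-like cluster and Slc7a13 and Slco1a1 among those of the late-like one.

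RefSeq promoters (build GRCm38.p6, the same assembly as mm10; the 250 bases before each annotated start) were found for 28 of the 34 genes, 40 promoters in all, and were searched on both strands for the letters of sites bound by HNF4, a regulator of proximal tubule genes. The letters CAAAGTCCA were found for 1 of the 28 genes, Slc3a1 (3.57% against 0.451% of all 27025 genes with a promoter), and the shorter CAAAGTC, which overlaps them, for 2, Slc3a1 and Slc7a7 (7.14% against 4.33%). Counted by promoter, the longer letters were in 1 of the 40, against 0.384% of all 32851 promoters, and the shorter in 2 of the 40, against 3.84%. A match of letters is a description and not a binding site. Both promoters are shown because they are the only ones of the members with a match, which is in capitals on either strand. In Slc3a1, the longer match lay at positions -39 to -31 from the start, and in Slc7a7 the shorter one lay at -245 to -239.
Slc3a1 (chr17:85028097-85028346, plus strand): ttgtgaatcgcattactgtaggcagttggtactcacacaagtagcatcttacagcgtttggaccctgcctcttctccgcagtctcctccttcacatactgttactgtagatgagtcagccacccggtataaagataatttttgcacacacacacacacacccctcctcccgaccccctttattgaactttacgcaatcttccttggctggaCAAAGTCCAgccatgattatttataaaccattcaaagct
Slc7a7 (chr14:54417945-54418194, minus strand): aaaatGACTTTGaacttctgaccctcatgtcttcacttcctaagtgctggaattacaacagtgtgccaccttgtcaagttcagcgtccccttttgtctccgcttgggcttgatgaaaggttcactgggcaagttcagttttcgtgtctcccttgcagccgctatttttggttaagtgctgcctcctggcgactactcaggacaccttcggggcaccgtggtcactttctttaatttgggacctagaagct

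The transcript of the factor was read in the same class. Hnf4a stood at 174 CPM untreated and 197, 77.5 and 114 CPM at days 2, 7 and 30. Over the class it was thus lowest at day 7, as were 25 of the 34 genes, and the share of all genes lowest then was not counted. In early-like cells Hnf4a stood at 184 CPM untreated and 263, 161 and 184 CPM at days 2, 7 and 30. In injured-like cells it stood at 116, 104, 72.5 and 92.0 CPM in the same order. A link between Hnf4a and the 34 genes was not tested. Slc22a6, Slc22a8, Slc22a28 and Slc22a30 all lie on chromosome 19, and the promoters of the last 2 are near copies: 238 of 244 aligned bases (97.5%) were the same with the Slc22a28 window shifted by 6 bases. These 2 are shown, without capitals, because the genes are close paralogs. Whether reads were shared between their transcripts was not tested, so their counts are given with that caution.
Slc22a28 (chr19:8131983-8132232, minus strand): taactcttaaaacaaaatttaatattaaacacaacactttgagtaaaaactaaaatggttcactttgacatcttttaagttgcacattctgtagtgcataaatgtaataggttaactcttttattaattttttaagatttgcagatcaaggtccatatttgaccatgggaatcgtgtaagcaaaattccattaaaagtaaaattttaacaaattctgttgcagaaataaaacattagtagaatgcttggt
Slc22a30 (chr19:8405106-8405355, minus strand): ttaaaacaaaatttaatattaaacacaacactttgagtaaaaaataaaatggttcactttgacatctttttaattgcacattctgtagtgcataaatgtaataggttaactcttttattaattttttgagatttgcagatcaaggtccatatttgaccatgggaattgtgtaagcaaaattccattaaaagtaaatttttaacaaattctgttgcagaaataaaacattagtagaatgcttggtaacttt

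Slc34a1, the main sodium-phosphate carrier of the brush border (chr13:55398187-55415592 of mm10, overlapped on the other strand by Pfn3), stood at 3441 CPM (3417 to 3464) untreated, 2282 (2209.7 to 2356) on day 2, 314 (307 to 322) on day 7 and 546 (532 to 560.2) on day 30. Its level at day 2 was 66.3% (64.2 to 68.5) of the untreated one, at day 7 9.14% (8.90 to 9.38) and at day 30 15.9% (15.5 to 16.3). It was within 2-fold at day 2 and lower at both later times. After each cell was thinned to 2000 UMIs, a Slc34a1 UMI was found in 98.3% (97.8 to 98.8) of untreated cells, 81.9% (73.7 to 88.4) on day 2, 25.8% (22.6 to 29.1) on day 7 and 35.7% (32.4 to 39.0) on day 30. Leukocyte-like and endothelial-like cells, which should lack the gene, had shares of 77.9% (74.3 to 81.1), 0.839% (0.624 to 1.11), 2.09% (0.908 to 4.08) and 4.92% (4.10 to 5.86). Without thinning the shares were 99.9, 88.8, 61.1 and 59.4% in the class and 96.0, 3.59, 22.8 and 20.4% in the others, whose median depths were 3827, 7556, 22462.5 and 8643 UMIs. Slc34a3, the less abundant phosphate carrier, stood at 34.5 CPM untreated, 34.1 on day 2, 4.69 on day 7 and 2.22 on day 30. It was level until day 2 and lower at days 7 and 30, at 13.6% (10.8 to 16.9) and 6.41% (4.08 to 9.61) of the untreated level.

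Among the sugar carriers, Slc5a2, which takes up most filtered glucose, stood at 267 CPM (261 to 274) untreated, 364 (335 to 394) on day 2, 78.5 (74.6 to 82.5) on day 7 and 71.9 (66.9 to 77.1) on day 30. It was lower at days 7 and 30, at 29.4% (27.7 to 31.1) and 26.9% (24.9 to 29.0) of the untreated level, and not at day 2. Slc2a2, which passes glucose to the blood, stood at 129 CPM untreated, 214 on day 2, 91.3 on day 7 and 92.4 on day 30, within 2-fold throughout. Slc2a5, a fructose carrier, stood at 48.3 CPM untreated, 48.7 on day 2, 7.38 on day 7 and 13.8 on day 30, lower at days 7 and 30. Slc5a10, which takes up mannose and fructose, stood at 92.3 CPM (88.5 to 96.2) untreated, 20.7 (14.3 to 28.9) on day 2, 80.8 (76.8 to 84.9) on day 7 and 39.5 (35.8 to 43.4) on day 30. Over the class it fell at day 2 to 22.4% (15.5 to 31.5) of the untreated level, rose from day 2 to day 7 to 390.2% (278 to 565) and fell again to 48.9% (43.8 to 54.5) of the day 7 level, the only gene of the 34 with this course. Outside the injured-like cluster Slc5a10 took another course, at 93.1 CPM untreated and 25.6, 25.4 and 70.8 CPM at days 2, 7 and 30. In injured-like cells it stood at 84.1 CPM at day 7. Slc5a10 overlaps Grap and Fam83g on the other strand, and strand use in the counting is not given in the sources used. Slc5a1, the high-affinity glucose carrier, was under the 20 CPM minimum in every library, at 17.3 CPM untreated, 2.44 on day 2, 19.3 on day 7 and 19.3 on day 30.

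Of the carboxylate and sulfate carriers, the lactate carriers Slc5a12 and Slc5a8 moved apart at day 2 over the class. The early-sided Slc5a12 stood at 153 CPM (148 to 158) untreated, 477 (444 to 511) on day 2, 40.7 (38.0 to 43.7) on day 7 and 60.4 (55.8 to 65.2) on day 30, which was 312% (289 to 338) of the untreated level at day 2 and 26.7% (24.7 to 28.8) at day 7. The late-sided Slc5a8 stood at 112 CPM (107 to 116) untreated, 11.6 (6.97 to 18.1) on day 2, 19.8 (17.8 to 21.8) on day 7 and 55.2 (50.9 to 59.8) on day 30, already lower at day 2 (10.4% (6.24 to 16.2)) and higher at day 30 than at day 7 (279% (245 to 318)). In late-like cells Slc5a8 stood at 209 CPM untreated and at 248 (114 to 471) on day 2, the latter 9 UMIs in 3 cells. In early-like cells it stood at 11.3 CPM untreated and 1.28 on day 2, under the minimum. Slc13a3, which brings dicarboxylates in from the blood side, stood at 182 CPM untreated, 70.6 on day 2, 12.1 on day 7 and 31.9 on day 30. It was lower at all 3 times and came back from 6.64% (5.80 to 7.58) of the untreated level at day 7 to 17.5% (15.6 to 19.5) at day 30. Slc13a1, the sodium-sulfate carrier of the brush border, ran against the rest, at 331 CPM (324 to 338) untreated, 664 (625 to 704) on day 2, 779 (766 to 791) on day 7 and 521 (507 to 535) on day 30. It was the only gene whose lowest level was the untreated one, at 201% (188 to 214) of it on day 2, 235% (229 to 242) on day 7 and 157% (152 to 163) on day 30. Its day 2 ratio lies at the 2-fold border, and the call was lost in 6 of 12 other settings, its day 7 call in 2 of 12. Slc13a1 was among the top 10 genes of the injured-like cluster, although the clustering did not use it. Its partner on the blood side, the sulfate exchanger Slc26a1, fell instead and stood at 81.7 CPM untreated, 106 on day 2, 28.5 on day 7 and 30.2 on day 30. Slc26a1 overlaps Idua on the other strand.

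The amino acid carriers took several courses. Slc6a19, the main carrier of neutral amino acids, stood at 126 CPM (121 to 130.4) untreated, 210.1 (188 to 233) on day 2, 11.5 (9.99 to 13.1) on day 7 and 15.6 (13.3 to 18.1) on day 30, so it was within 2-fold at day 2 and lower at day 7 (9.10% (7.90 to 10.4)) and day 30 (12.4% (10.6 to 14.5)). The cystine and dibasic amino acid carrier Slc7a9 stood at 108 CPM untreated, 192 on day 2, 44.4 on day 7 and 46.7 on day 30 and was also lower at days 7 and 30. Its heavy chain Slc3a1 stood at 202 CPM untreated, 105 on day 2, 91.7 on day 7 and 104 on day 30, lower at day 7 alone (45.4% (43.0 to 47.9)), while day 30 was just inside the 2-fold line at 51.3% (48.1 to 54.8). The basolateral amino acid carriers were higher at day 2 over the class. Slc7a7, for cationic amino acids, stood at 97.4 CPM untreated, 230.2 on day 2, 54.1 on day 7 and 38.1 on day 30 and was 236% (211 to 264) of the untreated level at day 2. Slc7a8, for neutral ones, stood at 30.2 CPM untreated, 89.5 on day 2, 10.8 on day 7 and 9.69 on day 30 and was 296% (247 to 354) at day 2. Both were lower at day 30, Slc7a8 also at day 7. Both are early-sided, and in early-like cells both stayed within 2-fold at day 2. Slc7a7 stood there at 421 CPM against 289 untreated and Slc7a8 at 172 against 104 CPM. In injured-like cells Slc7a7 stood at 51.1 CPM at day 2 and 51.5 untreated. The part of the make-up of the class in these rises was not tested. Macrophage-like cells carry both transcripts too, as shown further on. Slc7a13, the aspartate and glutamate carrier of the straight tubule, had the deepest loss at day 2 and the largest return, at 433 CPM (425 to 441) untreated, 7.92 (4.21 to 13.5) on day 2, 6.55 (5.46 to 7.79) on day 7 and 207 (198 to 216) on day 30. That is 1.83% (0.973 to 3.13) of the untreated level on day 2, 1.51% (1.26 to 1.80) on day 7 and 47.8% (45.6 to 50) on day 30. The neutral amino acid carrier Slc6a18 stood at 155 CPM untreated, 82.8 on day 2, 77.6 on day 7 and 98.5 on day 30 and Slc6a13, a carrier of GABA, betaine and taurine, at 64.5 CPM untreated, 43.2 on day 2, 36.2 on day 7 and 45.4 on day 30, both within 2-fold throughout by the rule used here. Slc6a18 at day 2 was lower in 7 of 12 other settings, at a log2 ratio of -1.98 outside the injured-like cluster and -1.41 at Leiden resolution 2, and at day 7 in 5. Slc6a13 was lower at day 7 in 4 of 12, at -1.12 without mitochondrially encoded UMIs.

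Organic anion carriers made up 5 of the 9 genes that were lower first at day 2. Slc22a6, the main uptake carrier for organic anions on the blood side, stood at 599 CPM (589 to 609) untreated, 177 (157 to 198) on day 2, 26.5 (24.2 to 28.9) on day 7 and 92.7 (87.0 to 98.6) on day 30, which is 29.5% (26.2 to 33.1), 4.42% (4.04 to 4.83) and 15.5% (14.5 to 16.5) of the untreated level. Its neighbour on chromosome 19, Slc22a8, stood at 236 CPM (229 to 242) untreated, 51.8 (41.3 to 64.0) on day 2, 5.78 (4.76 to 6.95) on day 7 and 9.97 (8.18 to 12.0) on day 30, which is 21.98% (17.5 to 27.2), 2.45% (2.02 to 2.96) and 4.23% (3.47 to 5.12). Slc22a8 was under the minimum for a comparison of days 7 and 30, whereas Slc22a6 rose from day 7 to day 30 to 350.2% (315 to 390.3). Slco1a1, an exchanger of bulky organic anions, stood at 458 CPM (449.7 to 467) untreated, 21.9 (15.4 to 30.3) on day 2, 10.3 (8.89 to 11.8) on day 7 and 132 (125 to 139) on day 30, lower at every time and higher at day 30 than at day 7. Slc22a12, which reclaims urate, stood at 304 CPM untreated, 129.7 on day 2, 21.5 on day 7 and 94.97 on day 30 and followed the same course. Slc17a3, an apical anion and urate exit, stood at 405 CPM untreated, 157 on day 2, 52.2 on day 7 and 92.1 on day 30, lower at all 3 times. Slc17a1, its chromosome 13 neighbour, stood at 332 CPM untreated, 184 on day 2, 73.9 on day 7 and 81.3 on day 30, lower at days 7 and 30. The rodent carriers Slc22a28 (133 CPM untreated, 82.8 on day 2, 6.29 on day 7 and 36.7 on day 30) and Slc22a30 (295 CPM untreated, 163 on day 2, 14.2 on day 7 and 104 on day 30) were lower from day 7 and higher at day 30 than at day 7. Slc47a1, which extrudes organic cations into the urine, stood at 306 CPM untreated, 314 on day 2, 109 on day 7 and 126 on day 30, level at day 2 and lower at days 7 and 30. Of these 9 carriers, 5 were lower at day 2 and 9 at days 7 and 30.

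The bicarbonate carrier Slc4a4, which returns reclaimed bicarbonate to the blood, stood at 1191 CPM (1178 to 1205) untreated, 1503 (1444 to 1563) on day 2, 733 (721 to 745) on day 7 and 757 (741 to 774) on day 30, within 2-fold of the untreated level at all times although lower at day 7 than at day 2 (48.8% (46.7 to 50.9)). The sodium-proton exchanger Slc9a3 was too low to measure, at 3.68 CPM untreated, 2.44 on day 2, 0.619 on day 7 and 1.29 on day 30, on 88, 4, 12 and 14 UMIs. Of the 3 endocytic genes among the 34, Cubn was lower at days 7 and 30. The receptor Cubn stood at 146 CPM (142 to 151) untreated, 175 (155 to 196) on day 2, 40.5 (37.8 to 43.5) on day 7 and 55.8 (51.5 to 60.5) on day 30, within 2-fold at day 2 and lower at day 7 (27.7% (25.6 to 29.9)) and day 30 (38.1% (34.9 to 41.6)). Its partner Amn stood at 236 CPM (229.6 to 242) untreated, 206 (184 to 229) on day 2, 229 (222 to 236) on day 7 and 133 (126 to 140.3) on day 30 and the adaptor Dab2 at 345 CPM (338 to 352) untreated, 528 (493 to 564) on day 2, 283 (276 to 291) on day 7 and 325 (315 to 336) on day 30, neither past 2-fold at any time by the rule used here. Amn at day 30 was lower in 3 of 12 other settings, at a log2 ratio of -1.08 without mitochondrially encoded UMIs and -1.47 under median scaling, and Dab2 was lower at each time when the level in leukocyte-like and endothelial-like cells was subtracted, as given further on. The partner receptor megalin (Lrp2, not among the 34), stood at 1135 CPM untreated and 1296, 196 and 379 CPM at days 2, 7 and 30, so like Cubn it was within 2-fold at day 2 and lower at days 7 and 30. In early-like cells alone Lrp2 stood at 1134 CPM untreated and 2101, 1032 and 1614 CPM at days 2, 7 and 30.

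The level of the 34 genes split the class by cluster in each library. Their summed level was 4759 CPM in untreated injured-like cells and 3850.0, 3009 and 2733 CPM at days 2, 7 and 30. In the rest of the class it was 11177, 12781, 10142 and 8891 CPM. Cell by cell, the median share of UMIs from the 34 genes was 0.354, 0.376, 0.259 and 0.239% in injured-like cells, against 1.09, 1.23, 1.00 and 0.854% in the rest. The number of the 34 genes seen in a cell thinned to 2000 UMIs had a median of 5.5, 4, 4 and 3 in injured-like cells and 11, 11, 9.5 and 10 in the rest, with 4, 0, 1 and 1 in leukocyte-like and endothelial-like cells. The injured-like cells numbered 28, 38, 670 and 627, and the rest 2862, 78, 44 and 200.

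**Figure D2:**
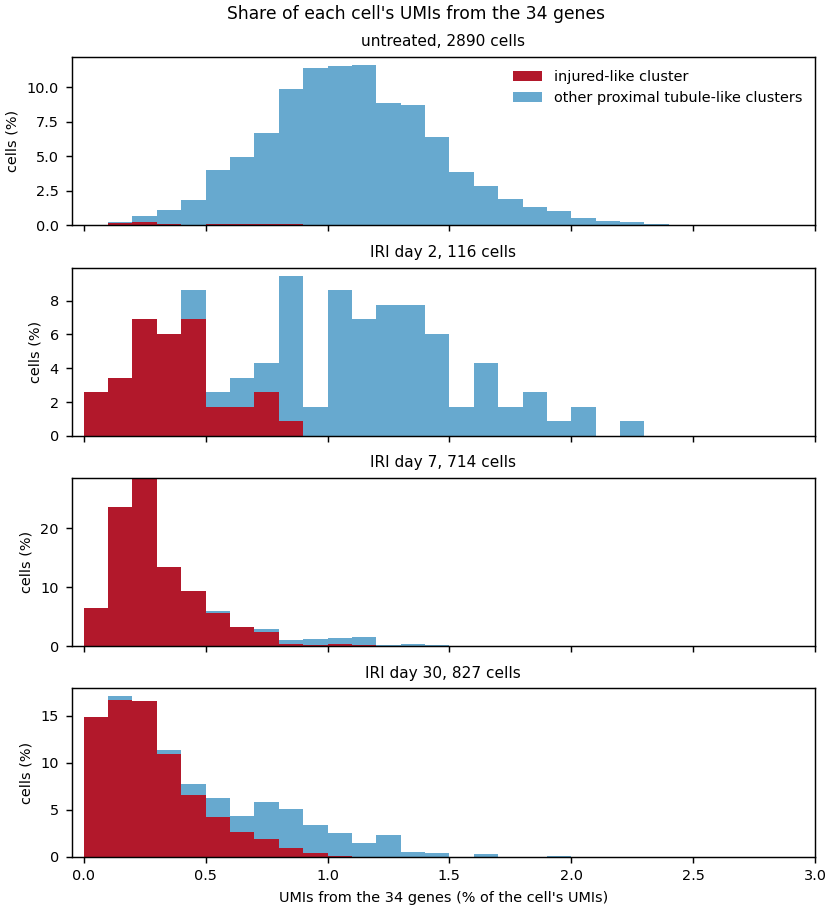
Share of each proximal tubule-like cell's UMIs that come from the 34 genes (horizontal axis, percent) against the percent of the library's proximal tubule-like cells (vertical axis), 1 panel per library, with injured-like cells and the other clusters stacked by colour. Medians lie between 0.239 and 0.376% in injured-like cells and between 0.854 and 1.23% in the rest.

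Within the injured-like cluster, 21 of the 34 genes were measured at days 2 and 7, of which 5 fell from day 2 to day 7 and 2 rose, beside 5.61% and 6.8% of all measured genes. The 5 that fell were Slc34a1 (31.6% (28.5 to 35.1) of the day 2 level), Slc5a12 (20.3% (15.9 to 26.1)), Slc22a6, Slc7a9 and Slc47a1. The 2 that rose were Slc5a10 (14.2 to 84.1 CPM) and Slc5a1 (1.42 to 20.2 CPM, the former 1 UMI). From day 7 to day 30, 4 of 25 measured genes rose and 2 fell, beside 2.58% and 0.81% of all genes. Slc7a13 rose from 3.34 (2.55 to 4.29) to 22.7 (19.6 to 26.2) CPM, Slco1a1 from 7.11 (5.94 to 8.44) to 31.0 (27.4 to 35.0), Slc22a30 from 5.25 to 22.02 and Slc22a12 from 6.07 to 21.5. The 2 that fell were Slc5a10 (30.7 CPM at day 30) and Slc17a1 (25.8 CPM). The same 4 genes that rose also stood in leukocyte-like and endothelial-like cells of day 30, Slc7a13 at 6.88 CPM, Slco1a1 at 5.07, Slc22a30 at 3.10 and Slc22a12 at 2.98 CPM, against 0.326, 0.326, 0.434 and 2.28 CPM at day 7. The part of free RNA in these rises was not tested. Injured-like cells of untreated kidneys numbered 28, too few for a comparison, and held 1359 (1232 to 1495) CPM of Slc34a1 and 0 CPM of Havcr1.

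Outside the injured-like cluster the losses were fewer. At day 2, 7 of the 32 genes measured were lower and 7 higher than in untreated cells, beside 4.22% and 15.9% of all measured genes. At day 7, 6 of 32 were lower and 3 higher, beside 2.27% and 11.1%, and at day 30, 4 of 33 were lower and 0 higher, beside 2.6% and 11.6%. These 4 were Slc34a1 (45.4% (43.9 to 46.9) of the untreated level), Slc34a3 (23.9% (14.5 to 37.2)), Slc22a8 (16.7% (13.5 to 20.5)) and Slc6a19 (41.8% (34.7 to 49.9)). Slc7a13, by contrast, stood there at 438 CPM untreated, 10.7 on day 2, 59.9 on day 7 and 858 on day 30, and Slco1a1 at 464 CPM untreated, 36.3 on day 2, 62.6 on day 7 and 488 on day 30. Both were lower at days 2 and 7 and not at day 30, where 100 of the 200 cells were late-like. At day 7, 4 of 44 cells were late-like, and at day 2, 3 of 78. The 44 cells at day 7 are under the 50 set for a comparison over the class and are given as values of few cells.

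The early-like cluster held 337, 60, 35 and 41 cells and so allowed all 4 libraries to be set side by side within 1 cluster. Whether it held the same mix of tubule positions in each library was not tested. Its summed level of the 34 genes was 12492 CPM untreated and 13405, 10458 and 10834 CPM at days 2, 7 and 30. At day 2, 3 of the 30 genes measured were lower than untreated and 1 was higher, beside 3.3% and 17.2% of all measured genes, at day 7, 4 and 2 of 30, beside 1.47% and 12.1%, and at day 30, 4 and 5 of 31, beside 3.26% and 20.6%. Slc22a8 was the only gene lower at all 3 times there, at 310.0 CPM (294 to 327) untreated, 94.97 (74.6 to 119) on day 2, 87.3 (68.9 to 109) on day 7 and 116 (89.3 to 149) on day 30. Slc34a1 stood at 4378 CPM (4316 to 4440.4) untreated, 3799 (3663 to 3938) on day 2, 2607 (2502 to 2716) on day 7 and 2611 (2476 to 2752) on day 30, within 2-fold throughout. Slc5a12 was higher at day 2 (857 against 371 CPM), as was Slc6a18 at day 7 and Slc13a1 at days 7 and 30 (1647 and 999 against 391 CPM). Slc6a19 was lower at day 7 (143 against 296 CPM). Slc34a3, Slc7a7 and Amn were lower at day 30 (31.9, 143 and 163 CPM). Slc5a8, Slc22a30, Slc6a18 and Slco1a1, all late-sided, were higher at day 30. The untreated levels of Slc5a8 and Slc6a18 in this cluster, 11.3 and 26.5 CPM, were below those in untreated leukocyte-like and endothelial-like cells, 27.7 and 30.0 CPM. Slc7a13 and Slco1a1 were lower at days 2 and 7, but their untreated levels in this cluster, 35.2 and 50.4 CPM, were below those in untreated leukocyte-like and endothelial-like cells, 85.4 and 134 CPM. Slco1a1 at day 30 (203 CPM) was above the 5.07 CPM of those cells.

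**Figure D3:**
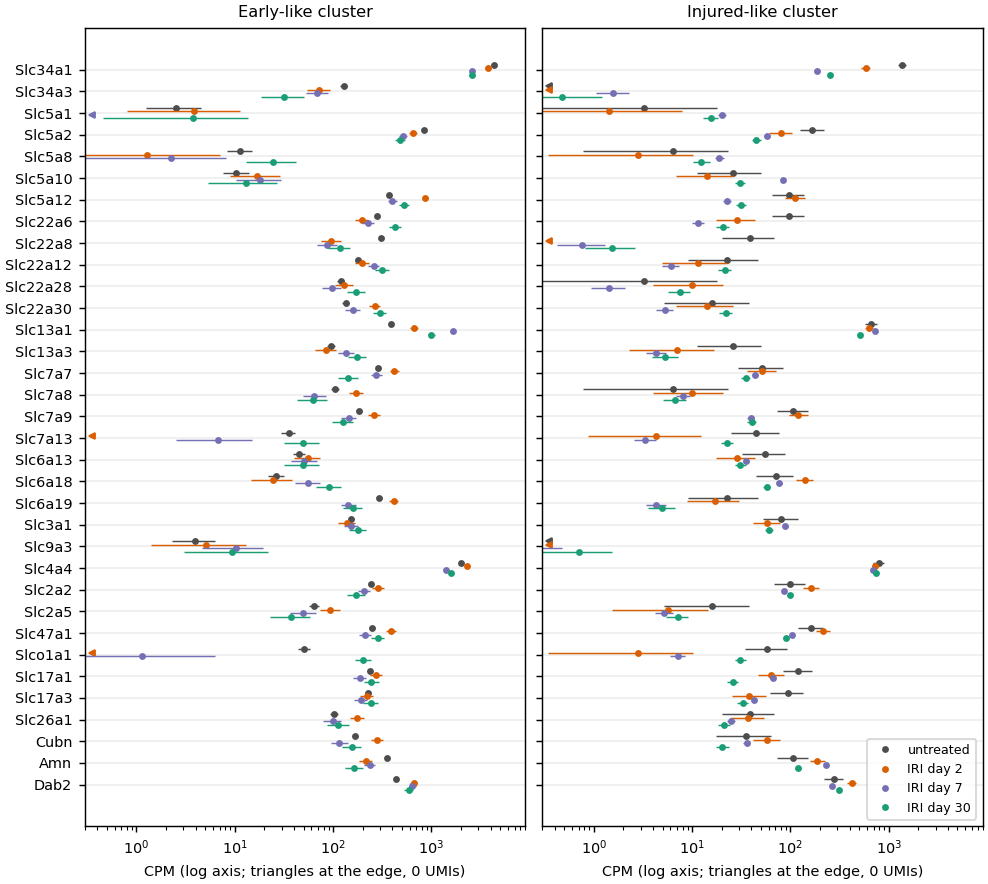
CPM (horizontal axis, log scale) of each of the 34 genes (vertical axis) in the early-like and the injured-like cluster; points are libraries by colour, lines exact 95% Poisson intervals that cover counting error only, and triangles at the edge 0 UMIs. Slc34a1 stays between 2607 and 4378 CPM in early-like cells and between 184 and 1359 CPM in injured-like cells.

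The late-like cluster held 295 untreated cells and 100 at day 30, with 3 and 4 cells at days 2 and 7, too few to compare. At day 30, 5 of the 30 genes measured were lower in it than untreated and 1 was higher, beside 2.89% and 23.5% of all measured genes. Slc22a8 stood at 5.24 (2.11 to 10.8) against 112 (104 to 121) CPM, Slc22a6 at 254 against 777 and Slc34a1 at 958 against 2983 CPM. Slc13a3 and Slc6a19 were also lower, at 45.9% (37.6 to 55.4) and 32.1% (15.7 to 58.9) of the untreated level. The untreated level of Slc6a19 in this cluster, 25.7 CPM, was no higher than in untreated leukocyte-like and endothelial-like cells, 26.7 CPM. Those cells held 0.885 CPM of it at day 30, and its day 30 level in the late-like cluster rests on 11 UMIs. Slc5a1 was higher (52.4 against 26.0 CPM). Slc7a13, at 1422 against 1045 CPM, and Slco1a1, at 611 against 878 CPM, were within 2-fold. Over the class, Slc7a13 at day 30 stood at 3157% of its day 7 level and Slco1a1 at 1283%, while late-like cells went from 0.560% to 12.1% of it. Slc22a8 and Slc34a1 were thus lower at day 30 in the late-like cluster, and Slc22a8 in the early-like one too.

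Transcripts of the 34 genes were also read outside the proximal tubule-like class. In untreated leukocyte-like and endothelial-like cells together (605 cells) they summed to 2694 CPM, 24.3% of the level in the proximal tubule-like class, and at days 2, 7 and 30 to 636, 608 and 461 CPM, or 7.11, 17.8 and 11.3%. The median gene stood at 22.7% of its proximal level untreated and at 0.211, 4.85 and 3.80% later. In the untreated library 30 of the 32 genes with at least 20 CPM lay within 2-fold of their common median share, so the genes stood there in nearly the ratio they had in the proximal tubule-like class. At days 2, 7 and 30, 20 of 30, 15 of 21 and 24 of 27 such genes did, and Dab2, Slc7a8 and Slc7a7 led the sum, Dab2 alone with 526, 384 and 242 CPM. Dab2 stood at 733, 388 and 251 CPM in macrophage-like cells at days 2, 7 and 30, beside 528, 283 and 325 CPM in proximal tubule-like cells. Slc7a8 stood at 63.1, 69.5 and 48.3 CPM there, above its proximal level at days 7 and 30. Macrophage and monocyte markers (26 genes) summed to 166, 851, 1969 and 2202 CPM in the proximal tubule-like class in time order, and neutrophil markers (11 genes) to 89.0, 1858, 151 and 96.0 CPM. Of the 26, 4, 5, 1 and 1 were at 0 in the class. The part of such RNA in the class levels of Dab2, Slc7a7 and Slc7a8 was not tested beyond subtraction. With the leukocyte and endothelial level taken away, Dab2 at day 2 turned from 153% of the untreated level to a log2 ratio of -6.25 and at day 30 stood at -1.16, while at day 7 nothing was left of it, since the level taken away (384 CPM) was above the proximal one (283 CPM). The level taken away holds the Dab2 of the macrophage-like cells, which at days 2 and 7 was above the proximal level, so this subtraction does not measure free RNA of Dab2.

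**Figure D4:**
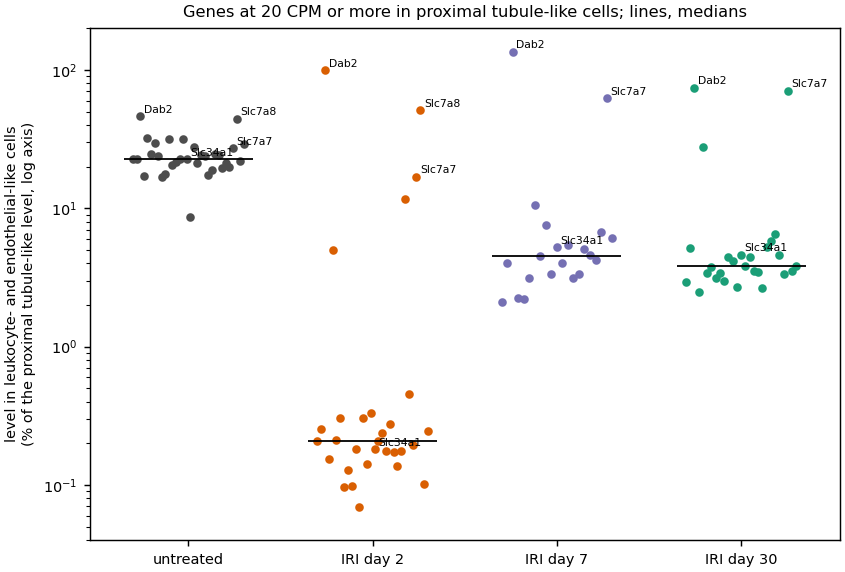
Level in leukocyte-like and endothelial-like cells as a percentage of the level in the proximal tubule-like class (vertical axis, log scale) by library (horizontal axis), with 1 point for each of the 34 genes that had at least 20 CPM in that class and lines at the medians of 22.7, 0.208, 4.51 and 3.84%. After IRI the highest points are Dab2, Slc7a8 and Slc7a7 at day 2 and Dab2 and Slc7a7 later, followed by Slc6a13 (11.7%) and Slc13a3 (5.01%) at day 2 and Slc13a3 at day 30 (27.6%); Slc7a8 is under 20 CPM at days 7 and 30 and is not drawn.

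Other nephron-like cells carried single members above this background. Slc5a1 stood at 131, 113, 106 and 70.7 CPM in thick ascending limb-like cells, above its proximal level in each library. Slc7a8 stood at 59.4, 83.5, 72.7 and 109 CPM in collecting duct cells of the principal cell-like class. Dab2 stood at 326, 412, 433 and 312 CPM in intercalated-like cells, about as high as in the proximal tubule-like class. Slc6a18 stood at 139 and 49.5 CPM in untreated and day 2 thin limb-like cells, the former 89.9% of its proximal level. Fibroblast-like cells at day 7 held the genes at a median of 22.1% of the proximal level, the highest median of the types with at least 30 cells after IRI.

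Genes of the same functions outside the 34 were counted by list, with the background shares given above. Of 28 genes of the endocytic machinery, 26, 25 and 25 were measured at days 2, 7 and 30, and 0 were lower and 4 higher at day 2, 3 and 5 at day 7, and 3 and 4 at day 30. Lrp2 fell most at day 7 (196 against 1135 CPM), followed by the proton pump subunit Atp6v0a4 (57.5 against 157 CPM), and the adaptor Cd2ap rose (475 against 97.2 CPM). Of 48 other transporters, 35, 35 and 36 were measured, and 11 were lower and 7 higher at day 2, 19 and 3 at day 7, and 12 and 4 at day 30. The organic anion carrier Slc22a7 had 0 UMIs at day 2 against 87.9 CPM untreated and stood at 11.7 against 87.9 CPM at day 30. The phosphate carriers Slc34a2 and Slc20a1, in contrast to Slc34a1, were higher at day 7 (40.1 against 0.502 CPM and 65.2 against 11.2 CPM). Of 28 brush border enzymes and scaffolds, 27 were found and 21, 21 and 22 measured, and 6, 7 and 5 were lower and 2 higher each time, with the peptidase Dpep1 at 6.60 against 76.2 CPM at day 7 and the peptidase Mme higher at 221 against 43.0 CPM. Of 21 transcription factors, 16, 16 and 17 were measured, and 0, 6 and 3 were lower and 6, 5 and 6 higher. Klf15 was lower at day 7 (2.89 against 27.0 CPM), and Sox9, a factor of tubule repair, was higher at day 30 (217 against 2.22 CPM). The proximal tubule enzymes among the naming markers (43 of 44 found, 41 measured) were lower in 22, 37 and 32 genes and higher in 0, which is no independent result, since these genes named the clusters.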

How the data were processed

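The 4 matrices of kidney cells, 1 per group, were used. The deposited values are raw, whole-number counts of UMIs for each gene in each barcode. Cell Ranger 7.0.1 and mm10 are named per the submitters' processing notes, and 3.0.1 is the software version per the file headers. No source used here gives the annotation release, the strand setting or the rule for barcodes. Total UMIs were 68193456 untreated and 98818914, 49397016 and 76638427 at days 2, 7 and 30.

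Barcodes with at least 500 UMIs, 300 genes and at most 50% mitochondrially encoded UMIs were kept; the last limit removed 2740, 35, 0 and 45. Scrublet in scanpy 1.11.5, at 0.8% expected doublets per 1000 barcodes up to 10%, called 1, 681, 10 and 584, so it did not work on the untreated library. Cells were scaled to 10000 UMIs, reduced to 30 components of 2000 variable genes and clustered by Leiden (15 neighbours, resolution 1, seed 0, leidenalg 0.10.2), leaving out 158 genes: the 34 members and the other pathway lists, 63 of which would have been variable. A name needed at least 3 markers leading at 2-fold and in 10% of cells, and 25% of the list. UMIs were then summed per class and library. Ratios have exact conditional binomial intervals, CPM exact Poisson intervals and shares exact Clopper-Pearson intervals (95%, scipy 1.17.1), and 3 counts served as the floor of a 0. Strata held at least 30 cells. All 34 members are named, and of each other list at most the 2 lowest and 2 highest called ratios per library. Another 12 settings were tried for each result, as listed in the closing section.

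The members and lists were chosen with earlier results of these data known. The naming thresholds, the merging of the injured-like cluster into the class, the early and late rule, the minimum for strata, the motifs and capitals, the Hnf4a values, the promoter pair and the early-like comparison were chosen after values had been seen.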

Additional observations from a re-analysis of the deposited data

How the results depend on the processing

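Counts and medians not given here stayed within the limits set for no change. Without the injured-like cluster, in order of days 2, 7 and 30 against untreated, 7, 6 and 4 genes were lower and 7, 3 and 0 higher, with median log2 ratios of 0.035, -0.34 and -0.33. From day 2 to day 7, 4 were lower and 3 higher (-0.20), and from day 7 to day 30, 9 were lower and 8 higher (-0.20). Single genes that were past the rule over the class or without the injured-like cluster and changed sign between them had these log2 ratios without it: at day 7 Slc34a3 0.68, Slc5a2 0.65, Slc5a12 1.15, Slc7a7 1.24, Slc7a8 0.86, Slc7a9 0.24, Slc6a19 0.028 and Slc26a1 0.13, and at day 30 Slc5a8 0.87, Slc5a12 0.087, Slc22a12 0.21, Slc22a28 0.061, Slc22a30 0.40, Slc7a13 0.97, Slco1a1 0.074 and Cubn 0.29. In the early-like cluster alone, an alternative chosen after seeing the data, 3, 4 and 4 genes were lower and 1, 2 and 5 higher (median log2 0.23, -0.27 and 0.17), with 4 lower and 2 higher from day 2 to day 7 (-0.36) and 1 lower and 2 higher from day 7 to day 30.

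Median scaling gave 16 lower and 2 higher at day 2, 0 higher at day 7, 0 lower from day 7 to day 30, and medians of -1.03, -2.57 and -2.06. Without mitochondrially encoded UMIs, 14 were lower at day 2, 0 higher at day 7 and 2 higher from day 2 to day 7, with medians of -2.16 at day 7 and -1.67 at day 30. With the leukocyte and endothelial level subtracted, 7 were higher at day 2, Dab2 at day 2 stood at -6.25, and the medians were -2.01 at day 7 and -1.21 at day 30. At 1.5-fold, 15 were lower and 8 higher at day 2, 1 higher at day 30 and 2 lower from day 7 to day 30. Over cells above the common floor of 18362 UMIs, of which day 2 held 21, the medians were -1.61 at day 7, -1.58 at day 30 and 0.12 from day 7 to day 30, with 0 lower there. Mean per-cell CPM gave -2.00 at day 7. With no low-value filter, 2 were higher from day 2 to day 7 and 2 lower from day 7 to day 30. Thinned to 1000 UMIs, the median share of cells with a UMI of a gene was 15.3, 12.9, 3.36 and 6.11% in time order, against 27.8, 21.1, 7.14 and 10.7% at 2000. Leukocyte-like cells alone held 3002 CPM of the 34 genes untreated and 655 at day 2. The cause of these shifts was not tested, except that other cells or divisors entered by construction.

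Over all single genes, comparisons and alternatives, 1084 values kept their side of the rule, 73 passed it anew and 50 no longer passed it. Another 17, past the rule in the main or the alternative setting, changed sign. Changes of sign between values that passed the rule in neither setting were not counted and are among the 1084. No paired analysis was possible because each group has 1 library and the labels carry no replicate numbers. The main limits are 116 proximal tubule-like cells at day 2, strata of 35 to 60 early-like cells after IRI, a sort on Clu that shapes which cells were seen, unequal UMI floors, and the untreated library's high share of mitochondrial and free RNA.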
